A study of Mus musculus with 21 samples.

Results

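Sustained excitation of cortical neurons was examined in 6 of the 21 libraries of the series: 3 from cultures given bicuculline and 3 from cultures given water, each exposed for 4 h and each pretreated with DMSO. The libraries were chosen by their labels alone, so the exposure times match and no measured value entered the choice. Cultures were grown from the cortex of CD1 mice and used at day 17 in vitro. Before that each culture had 30 min in DMSO, the vehicle for an inhibitor used in other samples, and it then received 40 µM bicuculline-methiodide or water. Bromouridine at 2 mM was present during the last 30 min, and the RNA that had taken it up was isolated and sequenced (BrU-seq), so a value reflects RNA made in that window rather than RNA stored in the cell. Each group had 3 biological replicates of mixed sex. The labels do not say whether animals were pooled within a replicate or which replicates shared a preparation. P-values therefore rest on the spread between libraries, which may not be that between animals. A further 3 libraries, of 1 h of bicuculline after DMSO, give values set beside those of the 4 h comparison. So do the libraries of 4 h of bicuculline or water after 25 µM MM401, 6 in number, of which 1 was left out for its low count. MM401 inhibits the binding of the histone methyltransferase MLL1 to WDR5. The test of the 4 h comparison drew its estimate of the spread from all 20 libraries of at least 1000000 counts. These include libraries of 1 h after MM401.

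Bicuculline blocks GABA-A receptors, the chloride channels of fast inhibition, and in a cultured network this releases bursts of glutamatergic firing. Calcium entering through NMDA receptors and L-type channels then activates transcription factors already present, CREB, SRF and MEF2 among them, which switch on a rapid wave of genes for further transcription factors. A slower wave follows, of genes for secreted and synaptic proteins that adjust excitability, inhibition and survival. Because BrU-seq reads the RNA being made, a gene whose transcription was switched on and off again can return to its starting level while its messenger RNA is still high.

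The promoters of the genes with the largest changes are shown first, as sequence context for the values that follow. They are the 3 genes with the largest increases and the 3 with the largest decreases that have a single promoter window in the RefSeq table for GRCm38.p6 and could be shown. Each run is the 250 bases before the annotated start, 5′ to 3′ on the strand of the gene, with matches to 5 searched motifs in capitals. They lie at chr10:102490419-102490668 on the minus strand for Nts (neurotensin), chr13:16011601-16011850 on the plus strand for Inhba (activin βA) and chr5:91139349-91139598 on the plus strand for Areg (amphiregulin), the genes that rose. They lie at chr9:45138374-45138623 on the plus strand for Scn4b (a sodium channel β subunit), chr2:118703964-118704213 on the minus strand for Ankrd63 and chr6:120493947-120494196 on the minus strand for Tmem121b, the genes that fell.
Nts: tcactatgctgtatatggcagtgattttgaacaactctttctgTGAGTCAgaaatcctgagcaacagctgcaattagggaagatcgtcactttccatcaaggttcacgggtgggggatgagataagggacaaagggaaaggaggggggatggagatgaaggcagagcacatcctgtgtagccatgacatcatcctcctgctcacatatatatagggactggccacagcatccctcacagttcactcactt
Inhba: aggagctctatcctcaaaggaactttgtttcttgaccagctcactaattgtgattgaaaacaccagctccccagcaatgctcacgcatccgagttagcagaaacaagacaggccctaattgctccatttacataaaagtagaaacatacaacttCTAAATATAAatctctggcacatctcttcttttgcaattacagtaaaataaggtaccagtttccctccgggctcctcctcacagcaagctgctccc
Areg: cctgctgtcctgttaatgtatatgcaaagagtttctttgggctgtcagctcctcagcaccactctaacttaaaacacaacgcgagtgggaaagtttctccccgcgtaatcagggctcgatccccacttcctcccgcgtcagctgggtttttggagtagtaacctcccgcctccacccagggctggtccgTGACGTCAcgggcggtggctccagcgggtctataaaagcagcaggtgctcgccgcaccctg
Scn4b: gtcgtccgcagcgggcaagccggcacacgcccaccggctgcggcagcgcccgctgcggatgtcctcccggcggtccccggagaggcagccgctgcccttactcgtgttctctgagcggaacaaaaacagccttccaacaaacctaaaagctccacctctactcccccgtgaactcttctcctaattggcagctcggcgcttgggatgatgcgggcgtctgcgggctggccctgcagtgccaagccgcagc
Ankrd63: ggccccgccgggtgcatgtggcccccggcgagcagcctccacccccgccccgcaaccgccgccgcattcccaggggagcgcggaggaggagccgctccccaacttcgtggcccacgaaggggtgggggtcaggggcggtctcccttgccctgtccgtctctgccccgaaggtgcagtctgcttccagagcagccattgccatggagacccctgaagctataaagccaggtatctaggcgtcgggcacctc
Tmem121b: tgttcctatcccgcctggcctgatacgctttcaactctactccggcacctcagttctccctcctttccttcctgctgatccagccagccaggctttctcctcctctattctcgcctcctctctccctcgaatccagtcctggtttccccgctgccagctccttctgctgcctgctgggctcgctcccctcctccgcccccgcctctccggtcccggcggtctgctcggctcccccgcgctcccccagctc
The motifs searched on both strands were the CRE (TGACGTCA, the site of CREB), the AP-1 site (TGANTCA, the site of Fos and Jun dimers), the EGR site (GCGTGGGCG), the CArG box of SRF and the MEF2 site, and each motif was counted on its own where matches overlapped. The Nts promoter held 1 AP-1 match ending 201 bases before the start, the Inhba promoter 1 MEF2 match ending 87 bases before it, and the Areg promoter 1 CRE match ending 54 bases before it. None of the 5 motifs was found in the promoters of Scn4b, Ankrd63 and Tmem121b, which were also richer in G and C (66.0%, 70.0% and 65.2%, against 48.0%, 43.2% and 57.2% for Nts, Inhba and Areg). A match is a description of the letters, and a missing match says nothing about binding elsewhere.

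Across all genes with a single window of 300 bases (250 before and 50 after the start), the CRE was present in 3.01% of the 10589 genes tested. It was present in 22 of the 357 such genes at least 2-fold higher after bicuculline (6.16%) and in 3 of the 221 at least 2-fold lower (1.36%). The MEF2 site was present in 1.91% of all tested genes, in 17 of the 357 higher genes (4.76%) and in 8 of the 221 lower genes (3.62%). For the AP-1 site the shares were 5.26%, 7.84% and 6.79% in the same order, for the CArG box 1.28%, 2.24% and 0.905%, and for the EGR site 1.095%, 1.40% and 0.4525%. These shares are descriptions of short windows and were not tested.

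After 4 h of bicuculline the nascent RNA of a large part of the expressed genome differed from that of water, mostly by small amounts. Of 16959 genes tested, 8344 (49.2%) passed an adjusted p of 0.05 in edgeR's quasi-likelihood test with Benjamini-Hochberg adjustment (called genes, below), 4014 of them higher (23.7%) and 4330 lower (25.5%). At least 2-fold changes were found for 582 called genes upward (3.43%) and 357 downward (2.11%). The median size of a called change was 1.37-fold, and 66.1% of called genes changed by less than 1.5-fold. The upward tail was longer than the downward one: 100 called genes were at least 4-fold higher and 29 at least 4-fold lower, and 24 were at least 8-fold higher and 0 at least 8-fold lower. In 8899 genes (52.5%) the values of the 3 bicuculline libraries did not overlap those of the 3 water libraries, 4172 of them higher (24.6%) and 4727 lower (27.9%). The split into higher and lower depends on how libraries are scaled: with plain library totals in place of TMM, a scaling that assumes most genes are unchanged, 1820 genes were called higher (10.7%) and 7867 lower (46.4%), and the median log2 change of all genes moved from -0.02 to -0.30. Changes are therefore given relative to TMM-scaled totals throughout. Member counts of the gene lists move with this shift, and those under plain library totals are to be read against these 1820 and 7867 genes; the list medians relative to the all-gene median moved by less than 0.02.

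**Figure D1:**
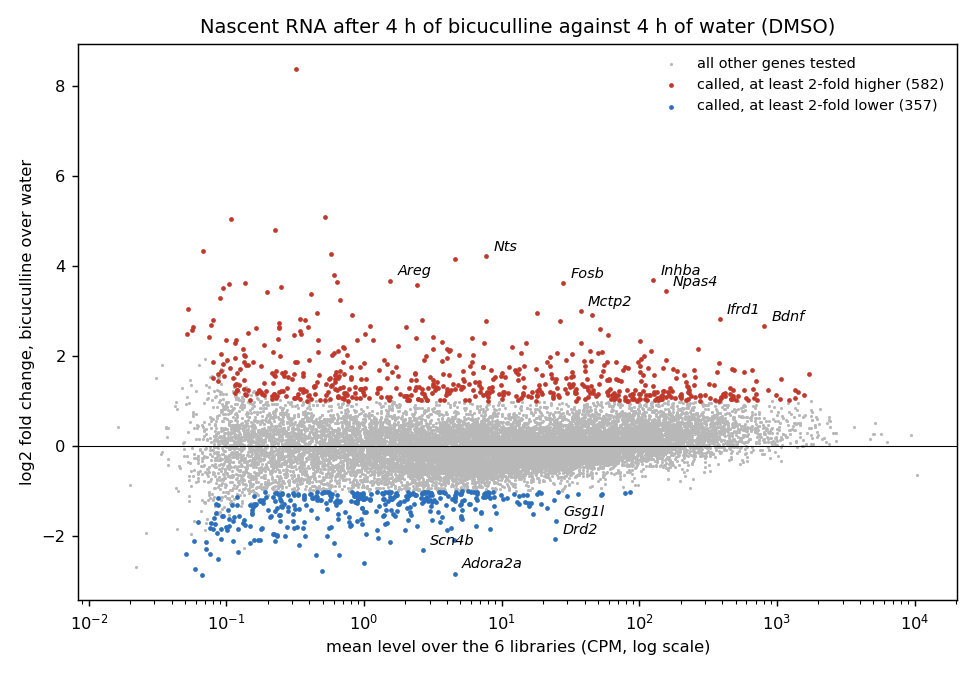
Each point is a gene tested, with its mean level over the 6 libraries (CPM, log axis) against its log2 fold change of 4 h bicuculline over 4 h water. Red points are the 582 called genes at least 2-fold higher and blue points the 357 at least 2-fold lower; the upward changes reach further from 0 than the downward ones.

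The 6 libraries held 53224745 to 87939384 counts in genes. The first principal component of their log2 values held 61.1% of the variance and separated bicuculline from water, and the second (14.3%) set water replicate 1 apart from the other libraries, at 31.5 against -11.9 and -17.1 for water replicates 2 and 3. The ribosomal precursor Rn45s took 0.723% to 0.806% of the counts of the bicuculline libraries and 0.949% to 2.01% of those of the water libraries. Levels below are CPM, counts per 1000000 of TMM-scaled totals, in the order of replicates 1, 2 and 3, and are not corrected for gene length, so they are compared between libraries and not between genes.

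The 15 leading increases were taken from genes that averaged 2 CPM or more in their higher group, and Nts, Serpinb2 and Inhba headed them. Nts, which encodes the neuropeptide neurotensin (chr10:102481756-102490418), stood at 16.6, 14.5 and 13.045 CPM after bicuculline and at 0.755, 0.880 and 0.717 CPM in water. Every bicuculline library lay far above every water library, and the fitted increase was 18.6-fold (log2 change 4.22, SE 0.13, edgeR adjusted p = 8.1e-16). Serpinb2, a protease inhibitor with a known role in neuronal survival, reached 9.81, 9.15 and 7.08 CPM against 0.534, 0.411 and 0.518 CPM, a log2 change of 4.16 (SE 0.27). Inhba, which encodes the subunit of the secreted factor activin A, stood at 240, 235 and 224 CPM against 20.9, 16.3 and 17.4 CPM. Its log2 change was 3.69 (SE 0.26), and the groups were far apart. Areg, a ligand of the EGF receptor, had 2.76, 3.35 and 2.51 CPM against 0.203, 0.235 and 0.226 CPM. Nms, the neuropeptide neuromedin S, had 3.55, 5.90 and 4.05 CPM against 0.368, 0.551 and 0.199 CPM, with the widest scatter of these genes and still no overlap.

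The transcription factors Fosb, Npas4, Atf3 and Klf4 were also among the 15 leading increases. Fosb, a partner of Jun proteins in the AP-1 factor, stood at 52.6, 51.9 and 50.9 CPM after bicuculline and at 4.09, 3.64 and 5.01 CPM in water (log2 change 3.61, SE 0.15). Npas4, a factor induced by calcium entry that controls inhibitory synapse number, had 348, 265 and 242 CPM against 31.3, 23.3 and 24.7 CPM. Replicate 1 was the highest library within each group for Npas4. Atf3, an activity- and stress-induced factor, rose by a log2 change of 2.92 (SE 0.10), and Klf4, a zinc finger factor, by 2.80 (SE 0.14). Ifrd1, a transcriptional coregulator, had 768, 625 and 619 CPM against 91.5, 91.3 and 102 CPM, a 7.06-fold increase. Bdnf, the neurotrophin central to activity-dependent plasticity, had 1390, 1431 and 1367 CPM against 247, 214 and 200 CPM, and its libraries agreed closely within each group. Acan, the core proteoglycan of perineuronal nets, rose 6.84-fold, from 7.81, 6.42 and 6.12 CPM to 42.7, 49.1 and 46.7 CPM. The remaining leading genes were Mctp2 (a C2-domain membrane protein; log2 change 2.99, SE 0.12), Tes (testin, a protein of focal adhesions; 2.95, SE 0.12) and Baiap2l1 (a protein that shapes the actin membrane; 2.77, SE 0.12). Inhba, Tes, Acan and Baiap2l1 overlap another annotated gene on the opposite strand and Ifrd1 overlaps a microRNA gene on its own strand, and since the use of strand in counting was not stated, reads of such pairs cannot be told apart.

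**Figure D2:**
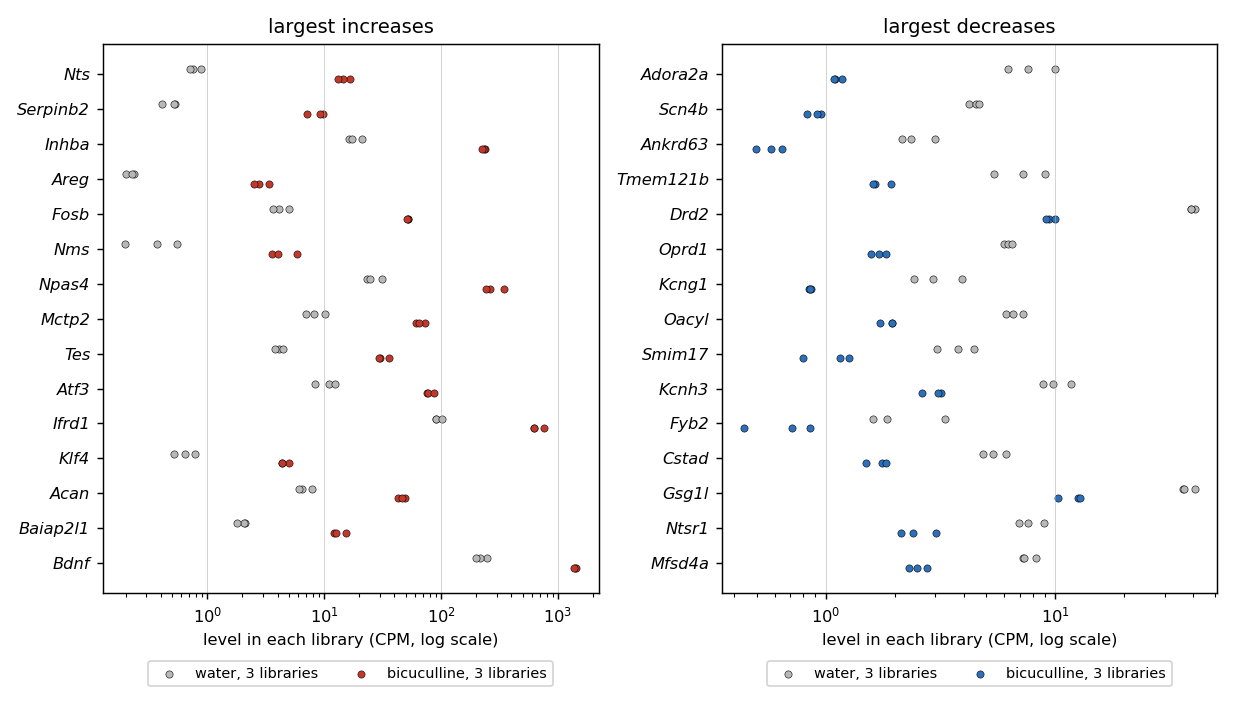
Levels of the 15 genes with the largest increases (left) and the 15 with the largest decreases (right) in each library (CPM, log axis); grey points are the 3 water libraries and coloured points the 3 bicuculline libraries. In each of the 30 genes the 2 groups do not overlap, which the choice of genes required.

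Sprr1a, a small proline-rich protein also known from injured neurons, lay below the level required of the leading 15 and was named after its values were seen. It had 37, 40 and 54 counts in the bicuculline libraries and 0 in each water library. Against a floor of 3 counts per water library this is at least 14.6-fold higher after bicuculline. Further down the ranking, and likewise picked after their values were seen, were Lef1, a transcription factor (log2 change 2.31, SE 0.13), Dkk2, a secreted protein (2.29, SE 0.13), and Wif1, another secreted protein (2.21, SE 0.21). Fgf10, a secreted growth factor, rose from 0.921, 1.09 and 0.956 CPM to 6.12, 5.14 and 4.92 CPM.

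Among 20 rapid transcription factor genes, most were still transcribed above the water level at 4 h, while Egr1 and Egr3 were below it. Of these, 15 were called higher and 2 lower, against 23.7% and 25.5% of all genes tested, and 14 were at least 2-fold higher, against 3.43% of all genes. The median log2 change of the 20 genes was 1.34, beside -0.02 over all genes. Members of this list and of the later lists were chosen with earlier results of these data known. Their shares therefore describe the lists only. The orphan nuclear receptors rose together: Nr4a3 had 451, 446 and 423 CPM against 101, 96.8 and 96.7 CPM, Nr4a2 rose by a log2 change of 2.07 (SE 0.14) and Nr4a1 by 1.87 (SE 0.09). Among AP-1 components the increase was 1.87 for Fosl2, 1.38 for Junb, 1.18 for Fos and 1.06 for Jun. Fos stood at 88.7, 97.5 and 88.4 CPM against 29.5, 40.6 and 50.7 CPM, so the water libraries varied more than the bicuculline libraries.

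The EGR genes encode zinc finger factors that are classical markers of recent activity. Egr1 stood at 56.5, 62.1 and 50.2 CPM after bicuculline and at 74.8, 80.8 and 99.7 CPM in water, so every treated library was below every control library (log2 change -0.60, SE 0.10, edgeR adjusted p = 4.3e-05). Egr3 had 10.7, 10.2 and 8.52 CPM against 20.5, 19.9 and 21.4 CPM, a log2 change of -1.07 (SE 0.10). Egr2 (log2 change 0.29, SE 0.15) and Egr4 (-0.12, SE 0.19) did not pass the test, and neither did Ier2 (-0.18, SE 0.19), another rapid gene; all 3 had overlapping groups. Single libraries moved these genes: without water replicate 1, Egr2 was called higher (0.44) and Ier2 lower (-0.40), Egr2 was also called higher without bicuculline replicate 3 (0.46), and without water replicate 3 Ier2 stood at 0.16 and Egr4 at 0.05. Egr2 was called higher with the trend with gene span removed too (0.49). In the 1 h bicuculline libraries the mean of Egr1 was 221 ± 18.3 CPM (SD, n = 3), that of Egr3 37.7 ± 5.1 CPM and that of Egr4 36.3 ± 2.98 CPM. The direct comparison of 4 h with 1 h of bicuculline gave a log2 difference of -1.97 for Egr1 (SE 0.10), -1.94 for Egr3 (SE 0.10) and -3.54 for Egr4 (SE 0.18). In that comparison 17 of the 20 rapid factor genes were called lower at 4 h, against 15.2% of all genes, and 1 was called higher, against 19.1%. The gene called higher was Csrnp1, a nuclear factor, with a log2 change of 1.37 at 1 h and 2.04 at 4 h over the same water libraries.

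Genes of synaptic and secreted effectors rose in nearly all cases. Of 18 tested, 16 were called higher (88.9%, against 23.7% of all genes) and 0 lower by edgeR, with 12 at least 2-fold higher (against 3.43% of all genes) and a median log2 change of 1.33; the other 2 were Plk3 and Mmp9. In the comparison of 4 h with 1 h of bicuculline, 8 of the 18 were called lower at 4 h and 6 higher, against 15.2% and 19.1% of all genes, and the median change over the same water libraries was 1.53 at 1 h. Beside Inhba, Acan and Bdnf, the largest changes were those of Ptgs2 (cyclooxygenase-2, the inducible prostaglandin enzyme; log2 change 2.28, SE 0.18), Tnfaip6 (a hyaluronan-binding secreted protein; 2.00, SE 0.15) and Nptx2 (a pentraxin that clusters AMPA receptors; 1.92, SE 0.10). Ptgs2 had 66.0, 71.2 and 51.2 CPM against 15.1, 12.5 and 11.3 CPM. Rheb, the GTPase that activates mTORC1, stood at 389, 332 and 365 CPM against 142, 137 and 143 CPM. Arc, which drives removal of AMPA receptors from the synapse, rose by 1.09 (SE 0.16), and Homer1, a postsynaptic scaffold with an activity-induced short form, by 0.65 (SE 0.13). Their means in the 1 h libraries were 72.3 ± 2.82 CPM for Arc and 2317 ± 363 CPM for Homer1 (SD, n = 3), against 4 h levels of 25.9, 22.8 and 18.4 CPM and of 818, 720 and 688 CPM.

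Neuropeptide genes and the genes that process them rose in part of the list. Of 24 tested, 16 were called higher (66.7%, against 23.7% of all genes) and 0 lower by edgeR, 10 of them at least 2-fold (against 3.43%), with a median log2 change of 0.41; plain library totals gave 11 higher and 2 lower. The list does not hold Nms, described above. After Nts, its leading members were Cartpt (the CART peptide; log2 change 2.95, SE 0.33, at 0.884, 0.863 and 0.679 CPM after bicuculline), Adcyap1 (the peptide PACAP; 2.06, SE 0.08) and Pcsk1 (a prohormone convertase; 1.92, SE 0.10). Adcyap1 had 82.8, 86.5 and 72.7 CPM against 19.9, 19.7 and 18.6 CPM, and Pcsk1 had 251, 268 and 220 CPM against 72.5, 66.2 and 56.5 CPM. The opioid precursors Pdyn (1.91, SE 0.16) and Penk (1.78, SE 0.13) rose, as did Tac1, the substance P precursor (1.32, SE 0.13). Pam, the enzyme that amidates many of these peptides, rose by 1.25 (SE 0.11). Sst, a marker peptide of interneurons, did not pass the test (log2 change 0.40, SE 0.30), with 13.3, 19.7 and 13.8 CPM against 8.33, 17.5 and 9.41 CPM, and was called only in the fit without water replicate 2 (0.79).

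All 9 tested genes of a list of activity-regulated inhibitors of death, genes known to protect neurons when synaptic NMDA receptors are stimulated, were called higher (against 23.7% of all genes), 8 of them at least 2-fold (against 3.43%), with a median log2 change of 1.87. This list shares Atf3, Npas4 and Nr4a1 with the rapid factors and Inhba with the effectors. It too was chosen with earlier results of these data known, so its share is a description only. Of the members not described above, Gadd45g stood at 23.1, 23.6 and 20.3 CPM against 5.45, 6.50 and 7.51 CPM and Gadd45b rose by 1.49 (SE 0.11); both encode stress sensors that bind cell cycle proteins. Btg2, an antiproliferative coregulator, rose by 1.00 (SE 0.15).

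Feedback regulators of kinase and G protein signalling showed 18 of 24 members higher (75%) and 1 lower, against 23.7% and 25.5% of all genes, with 4 at least 2-fold higher (against 3.43%), and a median log2 change of 0.47; plain library totals gave 12 higher and 4 lower. Those 4 were Dusp1 (a MAP kinase phosphatase; 1.65, SE 0.11), Dusp14 (a related phosphatase; 1.38, SE 0.08), Rgs2 (which shortens Gq signalling; 1.34, SE 0.12) and Sik1 (a kinase that restrains CREB coactivators; 1.14, SE 0.08). Spred3, an inhibitor of the Ras pathway, was the member called lower (-0.29, SE 0.07), a call it lost with the trend with gene span removed (-0.12). In the comparison of 4 h with 1 h of bicuculline, 13 of the 24 were called lower at 4 h and 3 higher, against 15.2% and 19.1% of all genes.

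**Figure D3:**
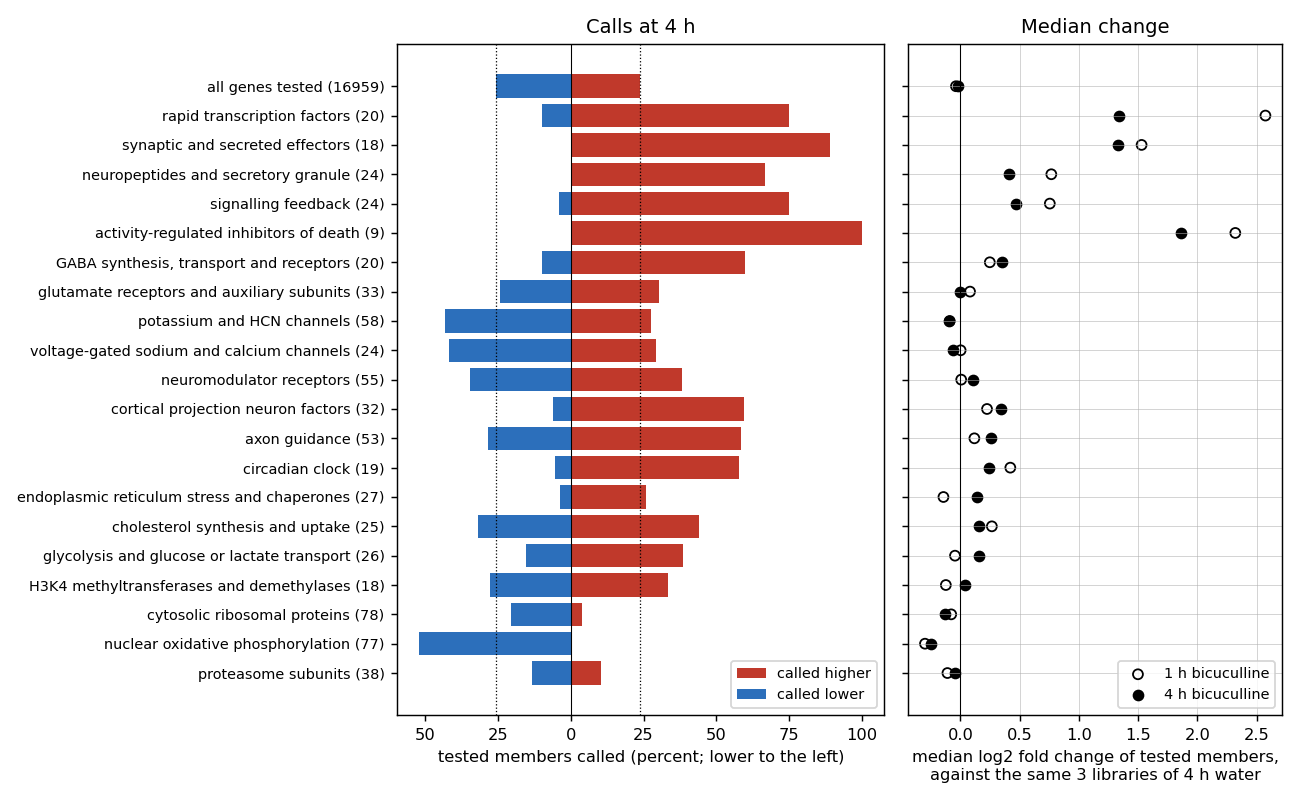
Left, the share of tested members of each gene list called higher (red) or lower (blue) after 4 h of bicuculline, with the number tested in brackets; dotted lines mark the shares over all 16959 genes. Right, the median log2 fold change of the same members after 1 h (open) and 4 h (filled), both against the same 3 water libraries; the rapid factors moved from 2.57 at 1 h to 1.34 at 4 h.

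The 15 leading decreases, taken under the same minimum level, had log2 changes from -2.83 to -1.59, beside 2.66 to 4.22 for the leading increases, and Adora2a, Scn4b and Ankrd63 headed them. Adora2a, a Gs-coupled adenosine receptor (chr10:75316877-75334792), had 1.18, 1.10 and 1.09 CPM after bicuculline against 6.23, 7.65 and 10.01 CPM in water. The treated libraries were nearly identical, the water libraries spread more, and the level was 7.12-fold lower (log2 change -2.83, SE 0.16, edgeR adjusted p = 7.2e-12). Scn4b, the sodium channel β4 subunit that promotes resurgent current, had 0.831, 0.951 and 0.914 CPM against 4.24, 4.50 and 4.66 CPM (-2.31, SE 0.17). Drd2, the dopamine D2 receptor, had 9.39, 9.13 and 10.01 CPM against 40.7, 39.2 and 39.0 CPM, and both groups were tight. Oprd1, the δ opioid receptor, had 1.72, 1.58 and 1.83 CPM against 6.01, 6.22 and 6.51 CPM, a 3.65-fold lower level. Ntsr1, a receptor of neurotensin, had 2.14, 2.40 and 3.01 CPM against 8.92, 7.59 and 6.997 CPM, a log2 change of -1.62 (SE 0.13), beside the rise of Nts itself.

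Potassium channel subunits among the 15 were Kcng1, a silent subunit that modifies Kv2 channels (log2 change -1.85, SE 0.20), and Kcnh3, an ELK-type channel (-1.76, SE 0.14). Kcng1 stood at 0.867, 0.849 and 0.852 CPM against 3.94, 2.44 and 2.95 CPM, and Kcnh3 at 2.63, 3.18 and 3.10 CPM against 11.8, 9.78 and 8.86 CPM; Kcnh3 overlaps Mcrs1 on the opposite strand. Gsg1l, an auxiliary subunit of AMPA receptors that dampens their current, had 10.3, 12.6 and 12.9 CPM against 40.6, 36.2 and 36.6 CPM, a 3.16-fold lower level. The others were Ankrd63 (-2.12, SE 0.21), Tmem121b (-2.08, SE 0.20), Oacyl (-1.82, SE 0.10), Smim17 (-1.78, SE 0.18), Fyb2 (-1.70, SE 0.24), Cstad (-1.67, SE 0.16) and Mfsd4a (-1.59, SE 0.11). Each of these 7 genes had its 3 bicuculline libraries below its 3 water libraries, as the choice required.

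Just outside the 15, and named after their values were seen, were Cbfa2t3, a transcriptional corepressor (-1.56, SE 0.12), Klf10, a zinc finger repressor (-1.51, SE 0.12), Smoc2, a matrix protein (-1.48, SE 0.11), Doc2b, a calcium sensor of spontaneous release (-1.45, SE 0.09), and Il34, a ligand of the microglial receptor CSF1R (-1.43, SE 0.11). Klf10 had 8.72, 9.38 and 8.25 CPM against 23.7, 22.8 and 28.5 CPM, so it moved opposite to Klf4.

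Receptors for neuromodulators moved both ways. Of 55 tested, 21 were called higher (38.2%) and 19 lower (34.5%), against 23.7% and 25.5% of all genes, with 6 at least 2-fold higher and 11 at least 2-fold lower, against 3.43% and 2.11% of all genes. The median log2 change was 0.11, which turned to -0.16 with plain library totals, where 12 were higher and 22 lower. Those higher included Tacr3, the neurokinin 3 receptor (log2 change 2.21, SE 0.14), Chrm5 and Chrm2, muscarinic receptors (2.03, SE 0.32, and 1.65, SE 0.13), and Htr2a, a serotonin receptor (1.49, SE 0.13). Tacr3 had 21.7, 18.5 and 17.99 CPM against 4.94, 4.20 and 3.51 CPM, and Chrm2 had 138, 162 and 158 CPM against 60.4, 44.8 and 41.4 CPM. Besides Adora2a and Drd2, those lower included the serotonin receptors Htr1d (-2.41, SE 0.43) and Htr1a (-1.46, SE 0.27). Htr1d had 0.177, 0.161 and 0.0865 CPM against 1.11, 0.586 and 0.571 CPM. Crhr1, the receptor of corticotropin-releasing hormone, had 8.58, 9.79 and 9.02 CPM against 24.6, 21.3 and 19.8 CPM, while Crh, its ligand, rose by a log2 change of 1.77 (SE 0.42).

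Potassium and HCN channel genes moved both ways. Of 58 tested, 16 were called higher (27.6%) and 25 lower (43.1%), against 23.7% and 25.5% of all genes, 1 at least 2-fold higher and 7 at least 2-fold lower, against 3.43% and 2.11%, with a median log2 change of -0.10. Plain library totals gave 10 higher and 34 lower. Kcna4, an A-type channel, was the member at least 2-fold higher, at 56.6, 57.8 and 48.4 CPM against 30.3, 25.1 and 23.8 CPM. Kcnd2, the main A-type channel of dendrites, rose by 0.96 (SE 0.13) and Kcnj3, a subunit of G protein-gated channels, by 0.80 (SE 0.14). After Kcng1 and Kcnh3 the decreases were led by Kcnk4, a leak channel (-1.62, SE 0.23), and Kcns1, a silent subunit (-1.37, SE 0.37). The pacemaker subunits Hcn4 (-0.94, SE 0.09) and Hcn2 (-0.81, SE 0.12) fell.

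Sodium and calcium channel genes gave 7 higher (29.2%) and 10 lower (41.7%) of 24, against 23.7% and 25.5% of all genes, and of these only Scn4b changed at least 2-fold. Plain library totals gave 4 higher and 16 lower. Cacna2d1, an auxiliary subunit that carries calcium channels to the terminal, rose by 0.80 (SE 0.11) and Scn3a, a sodium channel prominent early in development, by 0.54 (SE 0.07). Scn2b, an auxiliary sodium channel subunit, fell by 0.83 (log2 change -0.83, SE 0.13), and the T-type calcium channels Cacna1h (-0.70, SE 0.11) and Cacna1i (-0.67, SE 0.11) fell too.

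Glutamate receptor genes also moved both ways. Of 33 tested, 10 were called higher (30.3%) and 8 lower (24.2%), against 23.7% and 25.5% of all genes, with 0 at least 2-fold higher and 1 at least 2-fold lower (against 3.43% and 2.11%), and the median log2 change was -0.00, beside -0.02 over all genes. The split moved to 7 higher and 13 lower with the trend with gene span removed (median -0.14), against 23.1% and 23.7% of all genes in that fit, and to 4 higher and 17 lower with plain library totals. Grik2, a kainate receptor subunit, rose by 0.79 (SE 0.13) and Cacng3, an AMPA receptor auxiliary subunit, by 0.70 (SE 0.16). Gria2, the subunit that makes AMPA receptors impermeable to calcium, rose by 0.47 (SE 0.09). With all 21 libraries in the fit Gria2 was not called (0.45). Grm4, a presynaptic metabotropic receptor, was the member of this list at least 2-fold lower (Gsg1l, described above, is not in it), at 9.497, 8.34 and 9.69 CPM against 23.9, 16.96 and 17.7 CPM. Grm2 (-0.57, SE 0.12) and the auxiliary subunit Shisa7 (-0.56, SE 0.11) also fell. Without water replicate 1 the members called lower dropped from 8 to 4, and without bicuculline replicate 1 to 5.

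Genes for the synthesis and reception of GABA, the transmitter whose receptor bicuculline blocks, were more often higher than lower. Of 20 tested, 12 were called higher (60%) and 2 lower (10%), against 23.7% and 25.5% of all genes, 3 of them at least 2-fold higher (against 3.43%), with a median log2 change of 0.35. With plain library totals the median was 0.08, with 9 higher and 4 lower. Gabrg1, a γ subunit, had 91.1, 89.2 and 77.9 CPM against 33.0, 29.2 and 31.2 CPM. Gabra2, an α subunit, had 1027, 919 and 887 CPM against 478, 356 and 350 CPM. Gad2, a synthetic enzyme of the terminal, had 373, 368 and 390 CPM against 177, 179 and 166 CPM, and Gad1, its partner, rose by 0.84 (SE 0.08). Gphn, the scaffold that anchors these receptors, rose by 0.76 (SE 0.11). Of the 2 lower members, Gabbr2, a subunit of the metabotropic GABA-B receptor, stood at 153, 172 and 179 CPM against 299, 252 and 241 CPM. Gabra2 did not share the time course of the rapid genes: its log2 change over the same water libraries was 0.19 at 1 h and 1.26 at 4 h.

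Genes that give cortical projection neurons their identity rose in 19 of 32 cases (59.4%) and fell in 2 (6.25%), against 23.7% and 25.5% of all genes, with 3 at least 2-fold higher (against 3.43%) and a median log2 change of 0.34. With plain library totals 12 were higher and 5 lower (median 0.07). Tbr1, a factor of deep-layer neurons, had 37.7, 33.5 and 31.2 CPM against 12.1, 10.6 and 10.8 CPM. Fezf2, the selector gene of subcortical projection neurons, rose by 1.17 (SE 0.14) and Pou3f1, a POU-domain factor, by 1.18 (SE 0.20). Neurod2 (-0.51, SE 0.14) and Emx1 (-0.32, SE 0.11) were called lower, and Emx1 lost its call without bicuculline replicate 2 or water replicate 3. Both lost their calls with the trend with gene span removed, where 18 members were higher and 0 lower by edgeR. Axon guidance genes gave 31 higher (58.5%) and 15 lower (28.3%) of 53, against 23.7% and 25.5% of all genes. Their median of 0.26 turned to -0.01 with plain library totals (22 higher, 20 lower). With the trend with gene span removed, 25 were higher and 16 lower (median 0.09), against 23.1% and 23.7% of all genes in that fit. Slit2, a secreted repellent, led the axon guidance genes with 595, 630 and 554 CPM against 213, 149 and 132 CPM. The semaphorins Sema3c (1.38, SE 0.08) and Sema3e (1.00, SE 0.10) followed. Sema7a (-1.14, SE 0.09), the netrin receptor Unc5a (-1.07, SE 0.09) and Epha8 (-1.03, SE 0.15) fell.

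Clock genes were higher in 11 of 19 cases (57.9%) and lower in 1 (5.26%), against 23.7% and 25.5% of all genes, with a median of 0.24 that became -0.04 with plain library totals (5 higher, 3 lower). Nfil3, a repressor of D-box promoters, stood at 90.2, 105 and 106 CPM against 16.6, 17.6 and 20.02 CPM, and Tef, an activator at the same sites, was the member called lower (-0.29, SE 0.06). Cry1 (1.05, SE 0.06) and Per1 (0.93, SE 0.09), repressors of the core loop, rose. Of 26 glycolysis and transport genes, 10 were higher (38.5%) and 4 lower (15.4%), against the same shares of all genes, and the 3 at least 2-fold higher were transporters: the glucose transporters Slc2a3 (1.68, SE 0.12) and Slc2a1 (1.15, SE 0.11) and the monocarboxylate transporter Slc16a1 (1.55, SE 0.08). Slc2a3 had 128, 111 and 107 CPM against 40.6, 33.7 and 33.7 CPM, and Slc16a7, another monocarboxylate transporter, fell (-0.78, SE 0.09). Without any one of the bicuculline libraries, or without water replicate 2, 2 members were called lower. The median of this list was 0.16 and became -0.12 with plain library totals (4 higher, 6 lower).

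Cholesterol synthesis genes moved both ways, with 11 of 25 genes higher (44%), 8 lower (32%) and none at least 2-fold changed, against 23.7% and 25.5% of all genes called (median 0.16, and -0.12 with plain library totals, where 8 were higher and 10 lower). Hmgcs1, Cyp51 and Msmo1 rose by 0.94 (SE 0.09), 0.90 (SE 0.09) and 0.90 (SE 0.08), and Tm7sf2, Mvk and Fdps fell with log2 changes of -0.85 (SE 0.13), -0.81 (SE 0.11) and -0.54 (SE 0.11). Genes of endoplasmic reticulum stress gave 7 higher (25.9%) and 1 lower (3.70%) of 27, against 23.7% and 25.5% of all genes. With the trend with gene span removed 13 were higher and 1 lower, against 23.1% and 23.7% of all genes in that fit (median 0.32 in place of 0.14), and with plain library totals 4 were higher and 6 lower. Sesn2, a stress-induced regulator of mTORC1, was 0.65 higher at 4 h (SE 0.07) and had a log2 change of -0.46 at 1 h over the same water libraries. Of the 18 genes for H3K4 methyltransferases and demethylases, 6 were higher (33.3%) and 5 lower (27.8%), against 23.7% and 25.5% of all genes. With the trend with gene span removed 4 were higher and 3 lower, and with plain library totals 1 was higher and 11 lower. Kmt2c (0.38, SE 0.06) and Kmt2e (0.35, SE 0.06) rose, while Wdr5 (-0.36, SE 0.06) and Men1 (-0.46, SE 0.10), the MLL partner menin, fell. Kmt2e was not called with plain library totals (0.08). The count of lower members went to 3 without bicuculline replicate 1, bicuculline replicate 2 or water replicate 1.

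Nuclear genes of oxidative phosphorylation were called lower in 40 of 77 cases (51.9%, against 25.5% of all genes) and higher in 0, with a median log2 change of -0.25. Ndufs6, a complex I subunit, had 6.07, 5.75 and 6.61 CPM against 7.61, 10.7 and 11.5 CPM, and Uqcr11, a complex III subunit, 2.92, 3.29 and 3.05 CPM against 4.86, 4.43 and 5.52 CPM. No member changed 2-fold. These are short genes, with a median span of 7.08 kb, and after removal of each library's trend with gene span 21 were lower and 4 higher, against 23.7% and 23.1% of all genes in that fit, with a median of -0.11. Cytosolic ribosomal protein genes gave 16 lower (20.5%) and 3 higher (3.85%) of 78, against 25.5% and 23.7% of all genes (median -0.13), and after removal of the span trend 1 lower and 13 higher (median 0.05). The 3 higher became 1 without bicuculline replicate 1 or water replicate 2 and 5 without bicuculline replicate 3. Without water replicate 1 the lower ribosomal genes numbered 27, and without water replicate 3 they numbered 9. Proteasome genes gave 5 lower (13.2%) and 4 higher (10.5%) of 38, below the shares of all genes with TMM scaling. With plain library totals 19 proteasome, 49 ribosomal and 58 oxidative phosphorylation genes were lower and 1, 1 and 0 were higher in that order by edgeR.

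The 30 leading genes differed in how their 4 h levels stood beside those at 1 h. The 1 h and 4 h changes share the same 3 water libraries, which were taken at 4 h, so the values are set side by side only. The direct comparison of 4 h with 1 h of bicuculline does not use the water libraries. The genes were chosen on their 4 h levels, however, so the calls of this comparison describe them only. Over all genes, 15.2% were called lower at 4 h than at 1 h and 19.1% higher. Of the 15 increases, 4 were called lower at 4 h than at 1 h: Fosb (log2 change 5.77 at 1 h and 3.61 at 4 h), Npas4 (4.43 and 3.43), Klf4 (3.51 and 2.80) and Atf3 (3.21 and 2.92). A further 9 were called higher at 4 h, led by Inhba (1.47 at 1 h and 3.69 at 4 h), Serpinb2 (2.20 and 4.16) and Mctp2 (1.07 and 2.99). Nts (difference -0.04, SE 0.10, edgeR adjusted p = 0.80) and Ifrd1 (-0.02, SE 0.09, edgeR adjusted p = 0.92) did not pass the test of this difference. Of the 15 decreases, 13 were called lower at 4 h than at 1 h, against 15.2% of all genes. Oacyl was among them, with log2 changes of 0.06 at 1 h and -1.82 at 4 h. The other 2, Tmem121b (-1.91 at 1 h and -2.08 at 4 h, edgeR adjusted p = 0.57) and Ankrd63 (-1.82 and -2.12, edgeR adjusted p = 0.36), did not pass. Fgf10 and Pim1, named after their values were seen, had log2 changes of -0.11 and 0.30 at 1 h against 2.43 and 2.28 at 4 h, and Smoc2 had -0.02 at 1 h and -1.48 at 4 h.

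**Figure D4:**
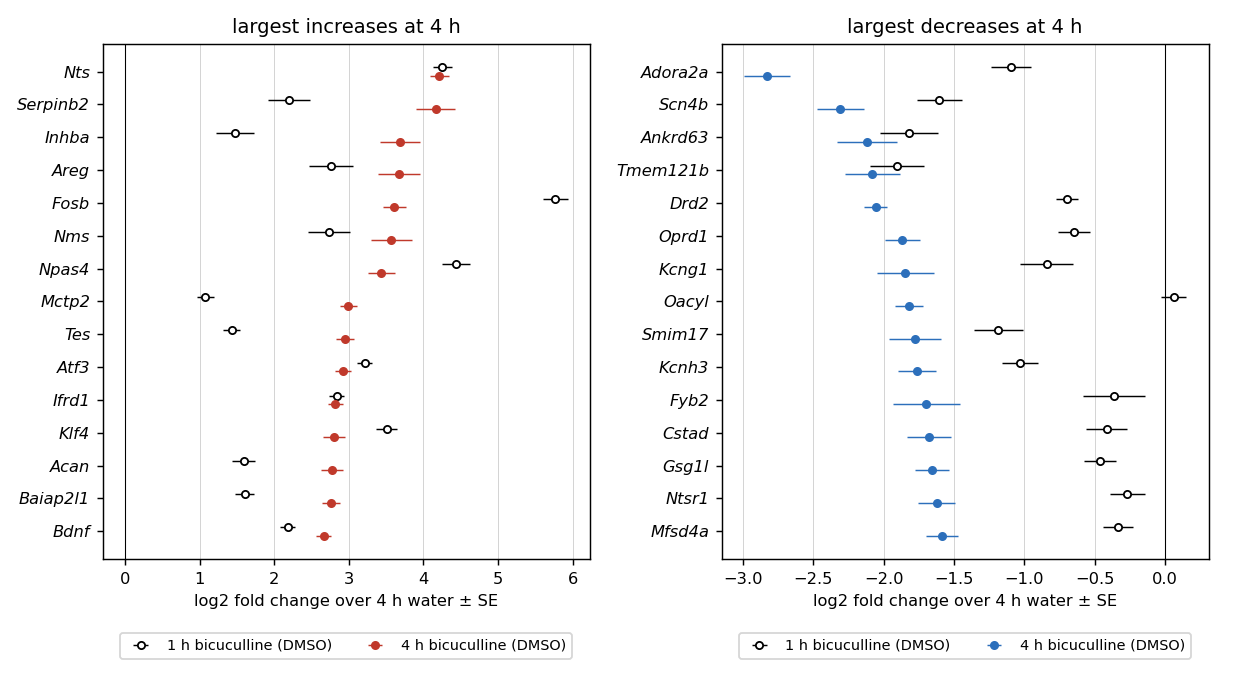
Log2 fold changes (± SE of the edgeR fit) of the 15 largest increases (left) and decreases (right) after 1 h (open) and 4 h (filled) of bicuculline, each against the same 3 libraries of 4 h water. Fosb lies furthest to the right of its 4 h value at 1 h, and Nts and Ifrd1 have nearly the same value at both times.

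The same exposure after MM401 used other libraries, 3 with bicuculline and 2 with water, the third water library being left out at 316741 counts. All 15 genes chosen for their increase after DMSO were called higher there as well, against 23.0% of all genes, with log2 changes from 2.20 to 4.28, and all 15 chosen for their decrease were called lower, against 21.7%, with log2 changes from -2.67 to -1.21. The largest edgeR adjusted p among the 30 was 6.0e-05. In a direct test of the difference between both 4 h responses (edgeR interaction term), 0 of 16959 genes passed the adjusted threshold and 2552 had an unadjusted p under 0.05. This does not show that the responses are the same.

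Genes that mark cell types were measured to check the label and to show what moved with the response. Markers of cortical glutamatergic neurons were well detected, with a summed level of 5548 to 6019 CPM in the bicuculline libraries and 3743 to 4884 CPM in water, and 5 of 12 were called higher (41.7%) and 5 lower (41.7%), against 23.7% and 25.5% of all genes. Snap25, a protein of vesicle fusion, and Slc17a6, a vesicular glutamate transporter, rose by 1.05 (SE 0.09) and 1.56 (SE 0.11), while Camk2a (-0.48, SE 0.09), Nrgn (-0.63, SE 0.10) and Rbfox3 (-0.57, SE 0.10) fell. Interneuron markers gave 9 higher (42.9%) and 1 lower (4.76%) of 21, and their summed level was 6053 to 6137 CPM against 4185 to 5011 CPM. Summed levels here and below carry the scaling: TMM factors were 0.906 to 0.921 for the bicuculline libraries and 1.02 to 1.16 for the water libraries. The scaled totals of all genes therefore also stood higher after bicuculline. In bulk cultures fewer cells of a type and less RNA per cell cannot be told apart.

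Adora2a, Scn4b and Drd2, which led the decreases, are also markers of striatal projection neurons, so that whole list was examined. Of its 26 tested members 14 were called higher (53.8%) and 7 lower (26.9%), against 23.7% and 25.5% of all genes, with a median log2 change of 0.32 and a summed level of 4586 to 4878 CPM after bicuculline against 2631 to 3155 CPM in water. Besides those 3 genes, Ppp1r1b (DARPP-32; -0.56, SE 0.10) was lower, whereas the list also held Pdyn, Penk and Tac1, described above, and the striatal factors Six3 (1.58, SE 0.19), Ebf1 (1.19, SE 0.12) and Meis2 (0.95, SE 0.08), which rose. The list thus moved in both directions, and none of its tested members was at 0 in any library. Astrocyte markers were called higher in 2 of 15 cases (13.3%, below the 23.7% of all genes) and lower in none, with summed levels of 2241 to 2494 CPM and 1797 to 2469 CPM, and Slc1a2, the main glutamate transporter of astrocytes, had a log2 change of -0.08 (SE 0.09) that did not pass the test, though it did, as lower, without water replicate 1 (-0.19) and with the trend with gene span removed (-0.28). Oligodendrocyte lineage markers (3 of 14 higher; 220 to 236 CPM against 182 to 216 CPM), microglial markers (4 of 14 higher; 119 to 149 CPM against 101 to 117 CPM) and vascular and fibroblast markers (2 of 11 higher; 14.8 to 16.5 CPM against 12.9 to 13.6 CPM) had none called lower, against 25.5% of all genes. The shares higher were 21.4%, 28.6% and 18.2%, beside 23.7% of all genes. The median log2 changes were 0.11, 0.31 and 0.41, beside -0.02 over all genes and 0.00 for the astrocyte list, and all 14 microglial markers had a positive log2 change. With plain library totals none of these 3 lists had a member called higher and 1 oligodendrocyte marker was lower. These small counts moved with single libraries: the microglial count was 2 without bicuculline replicate 1 or water replicate 3 and 7 without water replicate 2, and the astrocyte and vascular counts fell to 1 in 4 and 5 of the 6 such fits. Without water replicate 1, 3 astrocyte markers were called lower. Their part in the results was not tested.

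The response also differed with the span of a gene. The median log2 change was -0.19 for the 4479 genes under 10 kb, -0.06 for genes of 10 to 50 kb, 0.12 for 50 to 100 kb, 0.22 for 100 to 200 kb, 0.23 for 200 to 500 kb and 0.27 for the 206 genes of at least 500 kb. Genes of at least 100 kb took 62.4%, 62.4% and 62.3% of the counts of the bicuculline libraries and 62.2%, 58.0% and 56.9% of those of the water libraries. The difference of 3.32 percentage points had an exact permutation p of 0.1 (two-sided), the smallest that 3 libraries against 3 can give, and for genes of at least 200 kb the difference was 2.25 points with p = 0.4 in the same exact test. Water replicate 1 lay close to the bicuculline libraries, and against it alone the medians ran from -0.05 under 10 kb through 0.17 at 100 to 200 kb to 0.05 at 500 kb and more. Against water replicate 3 alone they ran from -0.28 to 0.41. In the MM401 libraries the corresponding medians stayed between -0.05 and 0.09. Its part in small shifts of lists of short or long genes was not tested beyond the span-corrected values given. For the 30 leading genes, changes with the trend removed were at least 2.58 upward and at most -1.54 downward on the log2 scale.

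**Figure D5:**
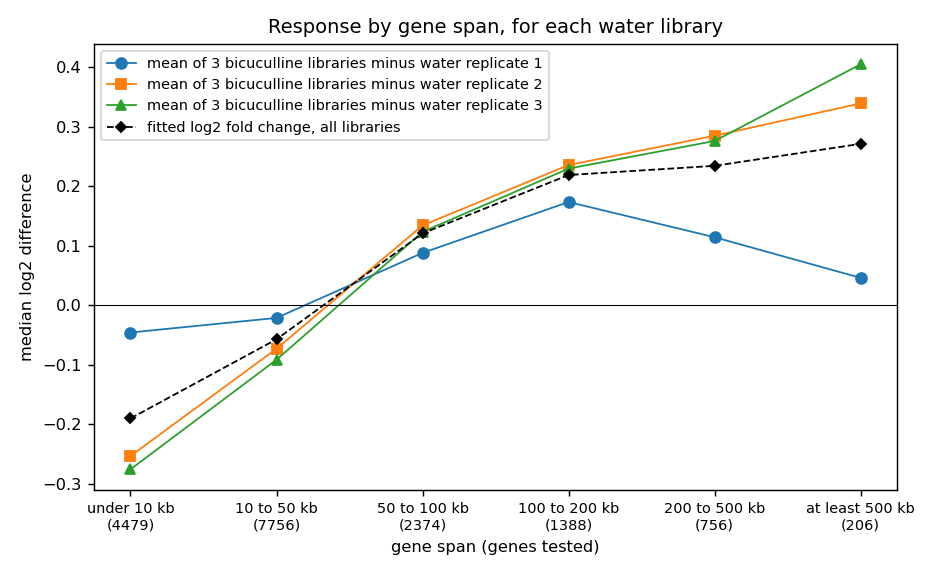
Median log2 difference between 4 h bicuculline and 4 h water in bins of gene span, for the mean of the 3 bicuculline libraries minus each water library alone and for the fitted change. The lines for water replicates 2 and 3 rise with span to 0.34 and 0.41, and the line for water replicate 1 peaks at 0.17 in the bin of 100 to 200 kb.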

How the data were processed

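The authors deposited raw read counts per gene for 24984 genes, made with featureCounts over whole gene spans on mm10, per the file headers. Per the submitters' processing notes, Bowtie2, UMI-tools, DESeq2 and deepTools were also used, with versions and roles not given; strand use and annotation release are not given in the sources used here. Gene starts in the table lay 1 base before the RefSeq start in 61.9% of 16676 matched genes, so 1 base was added. No sample column was left unused.

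The fit used R 4.3.3, edgeR 4.0.16 (robust quasi-likelihood) and limma 3.58.1, with filterByExpr by group (minimum count 10, minimum total 15; 16959 genes), TMM scaling, 1 mean per group and the 20 libraries of at least 1000000 counts, which share 1 estimate of the spread (coefficient of variation 8.77%). The 21st library, in neither group, had 316741 counts. P-values were adjusted by Benjamini-Hochberg over all genes, and a call is an adjusted p under 0.05. The 15 leading genes in each direction were called genes without overlap between groups and with a mean of 2 CPM or more where they were higher; predicted, microRNA, small nucleolar, mitochondrial and ribosomal pseudogene entries were left out. Up to 4 called members per direction were named for each of the 27 gene lists, and other genes named were chosen after their values were seen. The members and lists were chosen with earlier results of these data known. Promoter windows came from RefSeq (GRCm38.p6) and matched 13083 tested genes by symbol, 10589 of them with 1 window.

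Counts of replicates differed by more than sampling noise in every pair (chi-square per degree of freedom 13.2 to 67.9). The fit was tested on simulated data for this comparison with 200 of 16959 genes changed, as many up as down. It recovered 45 of 67 changes of 1.5-fold, 60 of 67 of 2-fold and 62 of 66 of 4-fold, with 7 false calls. In the data themselves 49.2% of genes were called, so the simulation does not show how many of those calls are false. Alternatives were other libraries, scalings and filters, DESeq2 1.42.0, removal of the trend with gene span, a replicate block and leaving out each library; removal of Rn45s and the span medians for each water library alone were chosen after seeing the data.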

Additional observations from a re-analysis of the deposited data

How the results depend on the processing

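With plain library totals the called genes split into 1820 higher and 7867 lower, with 311 at least 2-fold higher and 936 at least 2-fold lower, and 41 genes called in both fits had opposite signs. The median of every list relative to that of all genes moved by less than 0.02 between both scalings. With a filter of at least 1 CPM in 3 libraries, which tests fewer genes, 227 genes were at least 2-fold lower. All other settings kept the counts of called genes within 1.5 times: 6411 with all 21 libraries, 7227 with the 6 libraries alone, 8316 with DESeq2 and 7935 with the span trend removed. Leaving out 1 library gave 7287 to 8167 called genes (3365 to 3884 higher, 3705 to 4283 lower), 527 to 662 at least 2-fold higher and 322 to 394 at least 2-fold lower, and 6076 of the 8344 called genes (72.8%) were called in each of these 6 fits. The long-gene share difference then ran from 2.28 to 4.90 points, and was 2.25 for genes of at least 200 kb.

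Whether replicate numbers pair the samples was left unsettled, and the fit used above has no replicate block. Bicuculline and water libraries that share a number had deviations correlated at 0.10, 0.14 and 0.06. For libraries with different numbers the correlations ran from -0.18 to 0.07. With the replicate number as a block, 8782 genes were called (4224 higher, 4558 lower). The median SE was then 0.102, against 0.111 without the block. Egr4, at -0.12, turned to 0.075 with the span trend removed and to 0.046 without water replicate 3 (-0.26 to 0.046 over the fits without 1 library). Ier2, at -0.18, turned to 0.00095 and 0.16 in the same settings (-0.40 to 0.16 over the fits without 1 library). Neither gene passed the test where its sign turned, and Ier2 passed it without water replicate 1 (-0.40). The causes were not tested. Over all settings, 92 counts of list members called moved by more than 1.5 times and 772 did not. With plain library totals Dusp6, Kmt2e and Slc4a4 lost their calls, and Slc1a2 (-0.36) gained one; with all 21 libraries Dusp6, Gria2, Shisa9 and Emx1 lost theirs. The 30 leading genes kept their direction and call in every setting run. Totals of the 6 libraries ran from 53224745 to 87939384 counts, and the fit had 13 residual degrees of freedom.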
